A study of Mus musculus with 12 samples.

Results

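Regulatory T cells (Treg) from the spleens of tumour-bearing (TB) mice were compared with Treg from the spleens of normal mice. The members were chosen by their labels alone, as the 2 spleen Treg libraries of TB mice and the 2 spleen Treg libraries of normal mice, which makes 4 of the 12 RNA sequencing libraries of the series. The mice were C57BL/6. TB mice had received 500000 TC-1 cells, a transplantable mouse line derived from lung epithelium, through the tail vein, and were killed 3 weeks later. Normal mice carried no tumour, and no injection is given for them in the sources used here. In both groups CD4+ T cells were enriched by negative selection and GFP+ cells were sorted as Treg. The reporter allele, sex and age of the mice are not given, and the labels leave unsaid whether both libraries of a group are from different mice. Each p-value therefore reflects only how far the samples spread, which may be technical. That spread was estimated from all 12 libraries together, so it also rests on the Tconv and tumour libraries. Conventional T cells (Tconv), the GFP- cells from TB and normal spleens (2 libraries each), were also compared where a change in Treg was tested against the change in Tconv.

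Treg are CD4+ T cells that hold back immune responses, and most express the transcription factor Foxp3. In spleen they range from resting cells, which carry receptors for entry into lymphoid organs such as Ccr7, to activated or effector cells, which lose those receptors and gain tissue chemokine receptors, co-inhibitory and costimulatory receptors and cytokines. The receptor for IL-33, called ST2 and encoded by Il1rl1, is found on effector and tissue Treg, and the series is about that pathway in tumours.

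The 4 libraries held between 22004608 and 23358623 counts. Levels are CPM, counts scaled to library size with TMM, which corrects for differences in RNA composition, and changes are log2 fold changes of TB over normal ± SE from edgeR's quasi-likelihood test, called at a Benjamini-Hochberg adjusted p under 0.05. Foxp3 had 1028 and 1004 CPM in TB spleen Treg, against 989 and 1042 CPM in normal spleen Treg. Spleen Tconv had 13.3 to 19.6 CPM of it, so the sort separated the cell types in all 8 spleen libraries. Foxp3 did not pass the test (0.00 ± 0.11). Of its exonic bases 18.7% are shared with genes on the opposite strand and 18.6% with genes on the same strand. Ikzf2, a Treg transcription factor, had 879.7 and 939 CPM in TB spleen Treg, against 807 and 734 CPM in normal spleen Treg. Cd8a and Ms4a1, which define CD8 T cells and B cells, had at most 12 counts in any of the 4 libraries, and the haemoglobin genes had 0. Sums over whole marker lists were larger. The 18 B cell markers had 3685 and 3576 counts in TB spleen Treg, against 3649 and 2929 in normal spleen Treg. The 4 CD8 T cell markers had 735 and 629, against 741 and 710, and the 20 erythroid markers 2180 and 2213, against 1911 and 1779. The 8 tested T cell markers gave 4 lower and 0 higher in TB spleen Treg, with a median of -0.26, where 8.50% of all tested genes were called lower. The number lower was 2 without TB library 1 or normal library 1, and 1 without TB library 2 or normal library 2.

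Counts of platelet markers were higher in TB spleen Treg. Most tested macrophage and neutrophil markers had a log2 fold change above 0, mostly at low levels and with few calls. Over the 11 platelet and megakaryocyte markers the summed counts were 109 and 135 in TB spleen Treg, against 31 and 28 in normal spleen Treg, and 2 of the 3 tested markers, Itga2b and Gp1ba, were called higher; without TB library 2, normal library 1 or normal library 2 none was, and without TB library 1 1 was. Over the 20 neutrophil and granulocyte precursor markers they were 321 and 681 in TB spleen Treg, against 386 and 398 in normal spleen Treg, and of 14 tested markers Mpo alone was called (higher), while 3 were without TB library 1 and 0 without each other library. S100a8, a neutrophil marker, had 0 and 51 counts in TB spleen Treg, against 0 and 1 in normal spleen Treg, so TB library 2 stood apart. Lyz2, of macrophages and neutrophils, had 18 and 61 counts in TB spleen Treg, against 3 and 2 in normal spleen Treg, and Cebpe, a granulocyte factor, had 0 in all 4. The 25 macrophage and monocyte markers summed to 12933 and 13623 counts, against 13707 and 13468, most of it from Ctss, which T cells also express. Of 22 tested, Csf1r was called higher and Ctss lower, and 20 had a log2 fold change above 0 and 2 below 0. Their median was 1.66, and 0.753 without TB library 2. Of the 14 tested neutrophil markers 13 lay above 0 and 1 below 0, with a median of 3.72, and of 0 without TB library 2. The call for Ctss was lost without each of the 4 libraries, and that for Csf1r without TB library 2 (3.56) or normal library 1 (2.95). In percent of all counts the platelet sum was at most 0.000614 and the neutrophil sum at most 0.00309. None of the tested B cell (10), CD8 T cell (4), NK cell (4), mast cell (4), stromal (9), endothelial (6) and epithelial (12) markers was called; among dendritic cell markers Zbtb46 was higher and Bst2 lower, and among erythroid markers Tfrc was higher and Gata1 lower. The calls for Bst2 and Tfrc were lost without each of the 4 libraries, that for Gata1 without TB library 2 or either normal library, and that for Zbtb46 without normal library 2 (1.31). The part of these cells in the changes below was not tested. Xist, expressed from the inactive X chromosome of females, had 573 and 684 CPM in TB spleen Treg, against 441 and 350.3 CPM in normal spleen Treg (0.67, and 0.51 with the call lost without normal library 2), and 4 Y-linked genes had at most 1 count.

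Of 13509 tested genes, 918 (6.80%) were higher and 1148 (8.50%) were lower in TB spleen Treg than in normal spleen Treg. Large changes were mostly upward: 261 genes (1.93%) were called higher at least 2-fold and 40 (0.296%) were called lower at least 2-fold. For all 2066 called genes the TB and normal libraries did not overlap, so a gap between the libraries of a called gene adds nothing to its call; over all tested genes both TB libraries lay above both normal ones for 31.5% and below them for 32.1%. The median log2 fold change of all tested genes was 0, and 347 of them had no count in any of the 4 libraries. The first principal component of the 4 libraries held 67% of the variance and separated TB spleen Treg (-24.4 and -29.1) from normal spleen Treg (21.9 and 31.6). Since whole sorted populations were sequenced, fewer cells of a kind and less RNA per cell cannot be told apart.

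The balance between the directions depended on the scaling: with library size alone 1281 genes were higher and 645 lower (66.5% of calls higher, against 44.4% with TMM), and the median of all genes moved to 0.06. Each library weighed on the number of calls. There were 411 higher and 445 lower without TB library 1, 373 and 310 without TB library 2, 484 and 526 without normal library 1, and 271 and 241 without normal library 2. Lower calls were more frequent among strongly expressed genes, at 19.2% of the fifth with the highest mean level, and among short genes, at 12.7% of the fifth with the shortest transcripts against 4.94% of the fifth with the longest. The plot of change against level shows both the long upper tail and the dense band of small decreases at high levels.

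**Figure D1:**
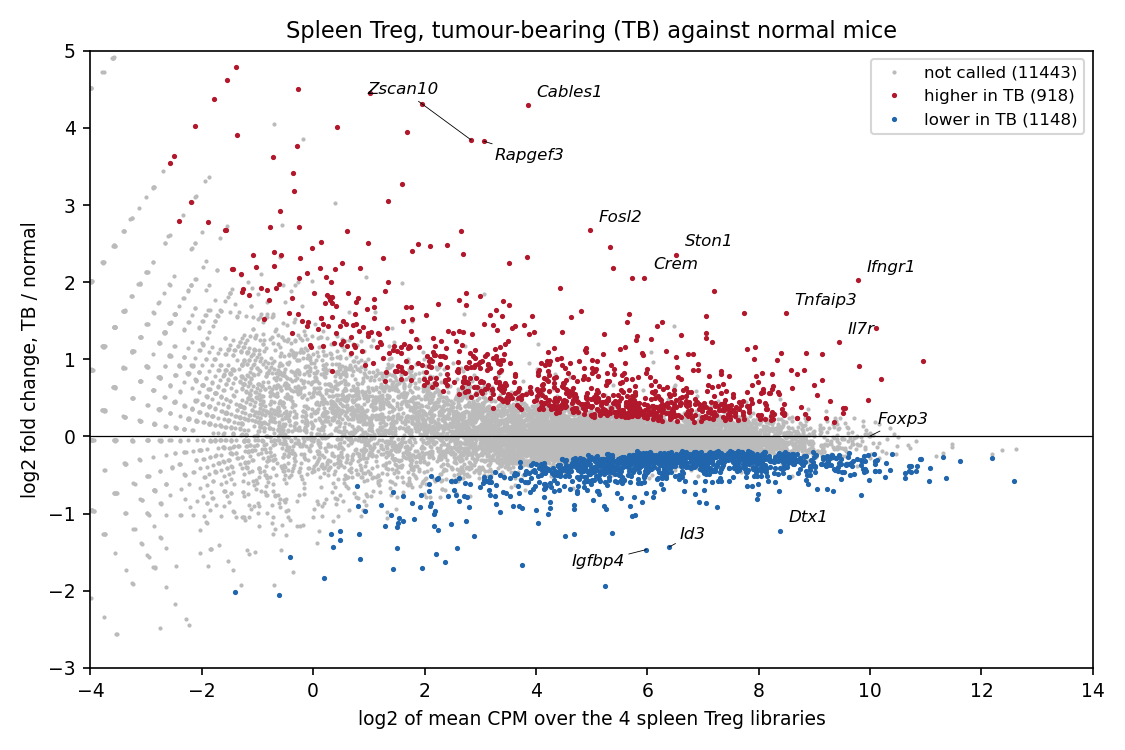
Log2 fold change (TB over normal, vertical axis) of each tested gene against the log2 of its mean CPM over the 4 spleen Treg libraries (horizontal axis). Red points are the 918 genes called higher and blue points the 1148 called lower; 48 genes lie outside the vertical range and 775 left of the horizontal range. The largest increases are among genes of low to middle level, while most decreases are under 2-fold.

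Among called genes whose log2 CPM averaged 2 or more in spleen Treg, the 15 largest increases ran from 2.06 to 4.30 on the log2 scale. The top 3 were close to silent in normal spleen Treg. Cables1, an adaptor of cyclin-dependent kinases whose exonic bases are 34.2% covered by an antisense gene, had 26.2 and 29.0 CPM in TB spleen Treg, against 1.63 and 1.16 CPM in normal spleen Treg (4.30 ± 0.27, adjusted p = 2.91e-06). Zscan10, a zinc finger transcription factor known from mouse embryonic stem cells (chromosome 17, 23600856 to 23611019, mm10), had 13.4 and 13.3 CPM, against 1.09 and 0.757 CPM (3.84 ± 0.25, adjusted p = 3.09e-06). Rapgef3, a guanine nucleotide exchange factor that cyclic AMP activates (chromosome 15, 97744770 to 97767972), had 16.2 and 15.2 CPM, against 1.17 and 1.02 CPM (3.83 ± 0.26, adjusted p = 4.29e-06). For all 3 genes the groups were far apart relative to the libraries within them.

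Transcription factors and signalling genes followed. Fosl2, an AP-1 subunit (chromosome 5, 32135801 to 32157842), had 54.8 and 53.9 CPM in TB spleen Treg, against 10.2 and 6.81 CPM in normal spleen Treg (2.67 ± 0.18). Crem, a transcription factor of the cyclic AMP response, had 101 and 98.4 CPM, against 24.3 and 23.6 CPM (2.06 ± 0.08). Epas1, a hypoxia-inducible factor, had 17.0 and 20.9 CPM, against 3.85 and 4.10 CPM (2.25 ± 0.16). These 3 regulators were high in both TB libraries and low in both normal ones, a gap that every called gene shows. Rgs2, which shortens G protein signalling, had 91.9 and 78.3 CPM, against 19.4 and 21.5 CPM (2.06 ± 0.11). Rnf157, a ubiquitin ligase, had 66.0 and 70.0 CPM, against 14.6 and 10.1 CPM (2.46 ± 0.17). Ston1, an adaptor of endocytosis, was the best counted of the 15, with 154 and 153 CPM, against 32.0 and 27.9 CPM (2.36 ± 0.15). 

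The other 6 of the 15 encode secreted, matrix or granule proteins and enzymes. Gzmb, the granule protease granzyme B, had 52.2 and 84.5 CPM in TB spleen Treg, against 12.6 and 17.4 CPM in normal spleen Treg (2.19 ± 0.27). Ctla2a, a cysteine protease inhibitor, had 23.8 and 24.1 CPM, against 3.56 and 6.01 CPM (2.33 ± 0.23), although 16.3% of its exonic bases are shared on the same strand. Lama5, a laminin chain, rose by 2.48 ± 0.24, Metrnl, a secreted protein, by 2.46 ± 0.26 and B3galt5, a galactosyltransferase, by 2.36 ± 0.20. Igj, the joining chain that plasma cells make, was the one with the widest spread, with 6.50 and 15.3 CPM, against 2.72 and 0.668 CPM (2.67 ± 0.59). The plasma cell markers together had 5025 and 5280 counts in TB spleen Treg, against 5488 and 5068 in normal spleen Treg. They include Irf4, which is also listed among the effector and tissue Treg genes, so this sum does not follow plasma cells alone. Of 6 tested plasma cell markers 4 had a log2 fold change above 0 and 2 below 0, with a median of 0.28. Igj missed the threshold without TB library 2 (1.92) or normal library 2 (2.00), and the 14 others stayed called without each of the 4 libraries.

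The largest decreases were smaller, and 13 of the 15 are described here, from -1.12 to -1.67. Igfbp4, an insulin-like growth factor binding protein high in naive T cells (chromosome 11, 99041244 to 99054392), had 35.6 and 31.6 CPM in TB spleen Treg, against 85.4 and 100.4 CPM in normal spleen Treg (-1.47 ± 0.10, adjusted p = 3.7e-06). Id3, an inhibitor of E proteins that resting Treg express, had 47.2 and 43.8 CPM, against 132 and 113 CPM (-1.43 ± 0.23). Dtx1, a ubiquitin ligase of the Notch pathway, had the highest level of the 13, with 212 and 188 CPM, against 474 and 462 CPM (-1.22 ± 0.12). All 3 of these genes kept their calls without each library.

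Ms4a4c, a membrane protein, fell by 1.29 ± 0.12, Trpm1, a cation channel, by 1.30 ± 0.18 and Dapl1, a gene of naive T cells, by 1.21 ± 0.16. The sterol enzymes Sqle and Fdps were also among the 13 and are described below. The remaining 5 depended on single libraries. F13a1, a coagulation factor subunit (-1.67 ± 0.33), missed the threshold without TB library 2 (-1.555) or normal library 2 (-1.33). Igf2bp3, an RNA-binding protein (-1.53 ± 0.34), missed it without TB library 1 (-1.10) or normal library 2 (-1.17). Sox4 (-1.44 ± 0.33), whose exons overlap a gene on the opposite strand over 54.6% of their bases, missed it without TB library 2 (-1.24) or normal library 1 (-1.27). Ntn4 (-1.63 ± 0.29) missed it without TB library 2 (-1.53). Rasip1 (-1.13 ± 0.25) missed it without TB library 1, TB library 2 or normal library 2, at -1.28 to -0.97.

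**Figure D2:**
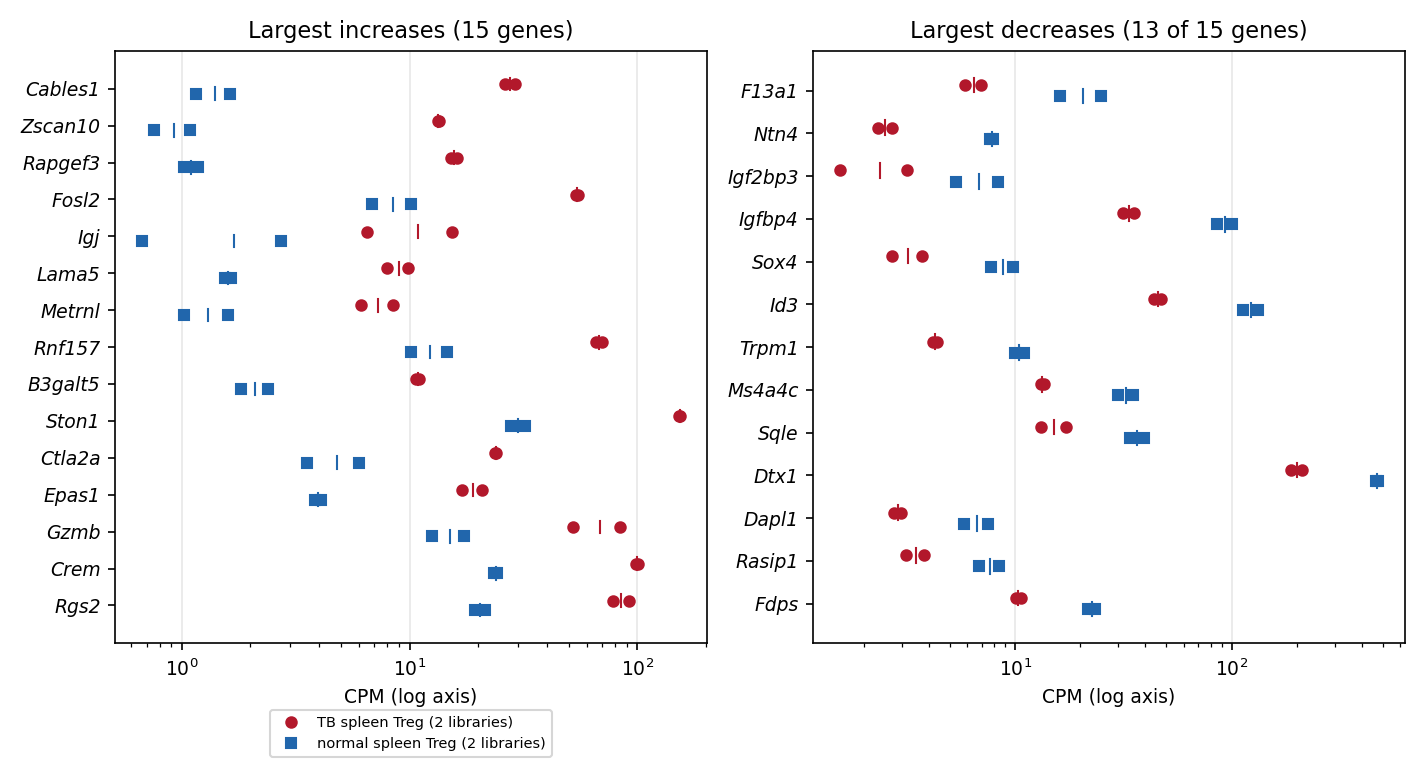
CPM (log axis) of the 15 largest increases (left) and 13 of the 15 largest decreases (right) among called genes whose average log2 CPM was 2 or more. Red circles are the 2 TB spleen Treg libraries, blue squares the 2 normal spleen Treg libraries, and vertical ticks the group means. Genes were drawn only where the groups do not overlap, so the gaps are a matter of choice; Igj has the widest spread within groups.

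Genes were then described in 24 lists of programs. Of all tested genes 6.80% were called higher and 8.50% lower, and each list is read against those shares and the all-gene median of 0. The lists with the largest shares lower were sterol synthesis, naive and lymphoid homing, heat shock and unfolded protein, cytosolic ribosomal proteins and oxidative phosphorylation. On the higher side the largest shares were in the lists of the glucocorticoid response, effector and tissue Treg, the circadian clock and chemokine receptors.

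**Figure D3:**
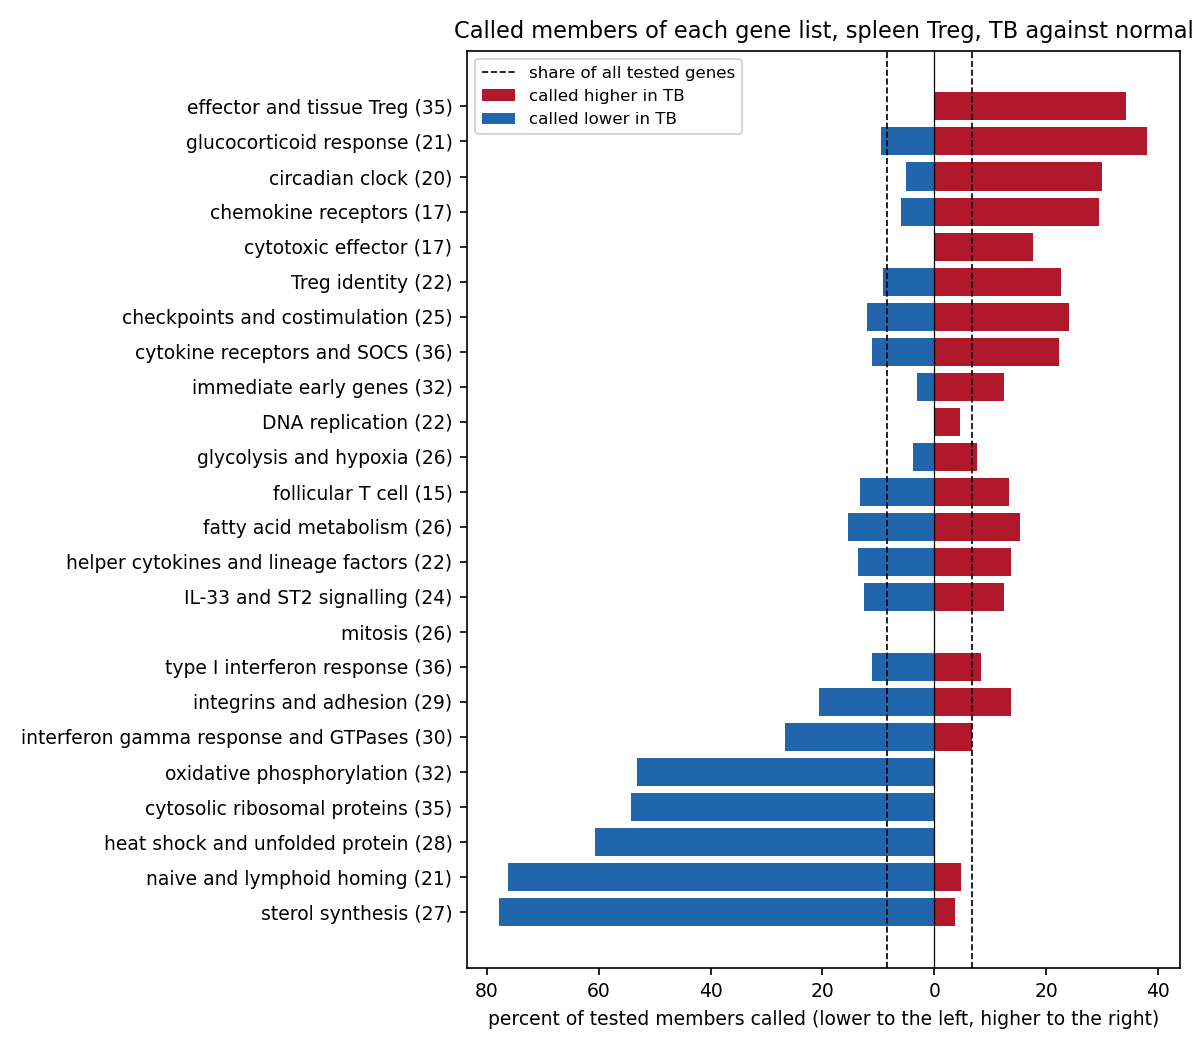
Percent of the tested members of each of 24 gene lists that were called higher (red, to the right) or lower (blue, to the left) in TB spleen Treg than in normal spleen Treg. The number of tested members stands in brackets, and dashed lines mark the shares over all 13509 tested genes (6.80% higher, 8.50% lower). Sterol synthesis (21 of 27 lower) and naive and lymphoid homing (16 of 21 lower) lie at the bottom.

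Genes of sterol synthesis and uptake were lower in TB spleen Treg almost throughout. Of 27 tested members 21 fell and 1 rose, with a median of -0.56. The list begins with Srebf2, the transcription factor that switches these genes on when sterols are scarce, which had 246 and 254 CPM in TB spleen Treg, against 409 and 407 CPM in normal spleen Treg (-0.71 ± 0.06, adjusted p = 2.37e-05). Hmgcs1, which makes the precursor HMG-CoA, had 38.6 and 46.6 CPM, against 72.0 and 81.8 CPM (-0.85 ± 0.11). Both genes were low in both TB libraries, without overlap, as for every called gene.

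Later steps of the pathway were lower too. Fdps, which makes farnesyl diphosphate, had 10.1 and 10.6 CPM in TB spleen Treg, against 21.7 and 23.4 CPM in normal spleen Treg (-1.12 ± 0.11), although 26.7% of its exonic bases overlap a gene on the same strand. Sqle, squalene epoxidase, had 13.2 and 17.1 CPM, against 33.8 and 39.2 CPM (-1.27 ± 0.16). Cyp51, lanosterol demethylase, had 30.6 and 39.0 CPM, against 66.2 and 76.0 CPM (-1.03 ± 0.13). Idi1, an isomerase earlier in the pathway, fell by 1.84 at low counts. The one member called higher was Abca1, which exports cholesterol from cells and is switched on when sterols are plentiful, with 127 and 118 CPM, against 62.3 and 57.2 CPM (1.03 ± 0.08, adjusted p = 6.71e-06). Leaving out a library left 14 to 17 members lower and 1 higher. In Tconv 17 members were called lower and 1 higher, with a median of -0.42. The test of the difference between Treg and Tconv (edgeR) called none of the 27, which does not show that they changed alike.

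**Figure D4:**
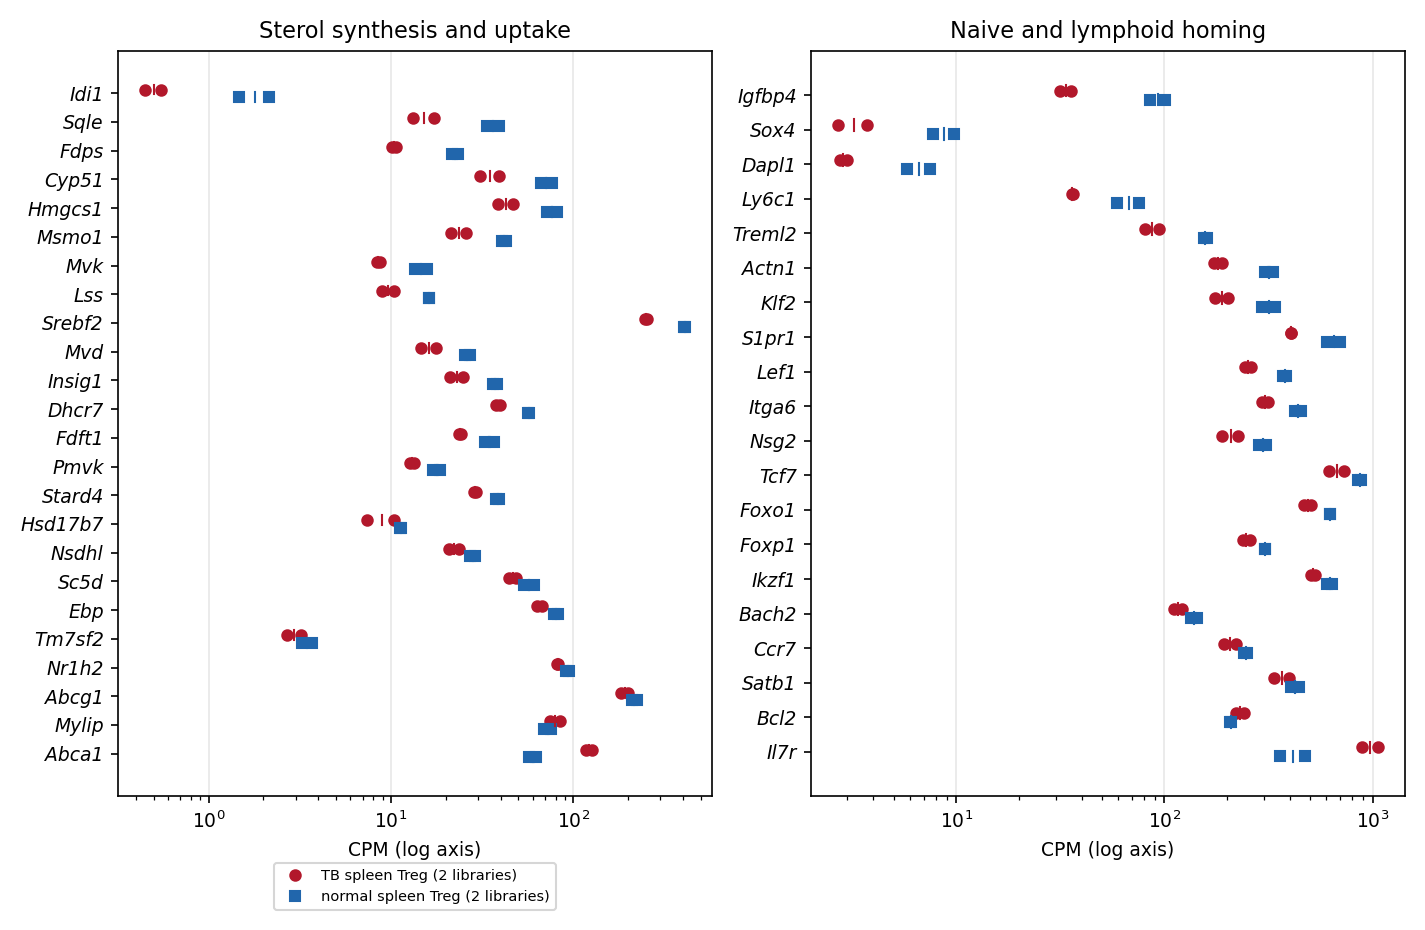
CPM (log axis) of 24 of the 27 tested members of the sterol list (left) and 20 of the 21 of the naive and lymphoid homing list (right), ordered by log2 fold change. Red circles are the 2 TB spleen Treg libraries, blue squares the 2 normal spleen Treg libraries, and ticks the group means. Most members lie lower in both TB libraries; Abca1 (127 and 118 CPM, against 62.3 and 57.2 CPM) and Il7r are the exceptions called higher.

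Promoter windows (250 bases before to 50 after a start, RefSeq, GRCm38.p6) were searched on both strands for the textbook motifs below, since the members of each list moved together. A match describes the letters and shows no binding. A listed gene was counted if any of its windows matched, whereas the share over all windows counts each window. The 2 measures are therefore unlike, since a gene with several windows has more places for a match. The sterol regulatory element, TCACNCCAC, was in the windows of 1 of the 14 lower sterol genes that had one, Hmgcs1, and in 1.24% of all 32851 windows. The Hmgcs1 window is chr13:119690101-119690400, plus strand, with the motif, 137 to 129 bases before the start, in capitals.
Hmgcs1: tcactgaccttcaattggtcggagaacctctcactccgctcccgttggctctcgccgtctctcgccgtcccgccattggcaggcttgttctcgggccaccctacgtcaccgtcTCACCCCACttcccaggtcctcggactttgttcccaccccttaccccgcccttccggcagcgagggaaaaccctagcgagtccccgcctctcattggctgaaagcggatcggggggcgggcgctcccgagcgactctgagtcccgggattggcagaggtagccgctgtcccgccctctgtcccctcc
The heat shock element (GAA, TTC and GAA, each pair parted by 2 bases of any kind) was in the windows of 3 of the 13 lower heat shock and unfolded protein genes that had one, Hspd1, Hspe1 and Hsph1, and in 0.603% of all windows. Hspd1 and Hspe1 lie head to head and share the same stretch. The Hspe1 window is chr1:55087898-55088197, plus strand, with 2 overlapping matches from 89 to 72 bases before the start, and the Hsph1 window is chr5:149636287-149636586, minus strand, with the match after the start. Capitals mark the matches.
Hspe1: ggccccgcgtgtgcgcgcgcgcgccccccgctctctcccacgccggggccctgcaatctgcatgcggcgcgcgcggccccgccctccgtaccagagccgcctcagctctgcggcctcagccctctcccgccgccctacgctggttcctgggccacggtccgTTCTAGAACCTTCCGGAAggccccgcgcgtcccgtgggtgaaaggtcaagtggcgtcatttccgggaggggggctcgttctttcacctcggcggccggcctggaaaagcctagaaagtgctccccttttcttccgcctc
Hsph1: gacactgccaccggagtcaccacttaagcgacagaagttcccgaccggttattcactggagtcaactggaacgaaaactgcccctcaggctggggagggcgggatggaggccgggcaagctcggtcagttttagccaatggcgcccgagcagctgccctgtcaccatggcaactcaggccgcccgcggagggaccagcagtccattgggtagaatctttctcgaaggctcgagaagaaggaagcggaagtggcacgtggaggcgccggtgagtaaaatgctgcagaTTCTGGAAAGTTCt
The cyclic AMP response element, TGACGTCA, was in none of the windows of the 11 of the 15 largest increases that had one, and in 1.79% of all windows.

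Genes of heat shock and of protein folding in the endoplasmic reticulum were lower in TB spleen Treg: 17 of 28 tested members fell and 0 rose, with a median of -0.31. The cytosolic chaperone Hsp90ab1 had 1832 and 1585 CPM in TB spleen Treg, against 2463 and 2629 CPM in normal spleen Treg (-0.58 ± 0.08, adjusted p = 0.000999). Hsph1, a partner of heat shock protein 70, had 123 and 87.7 CPM, against 199.5 and 199 CPM (-0.92 ± 0.17). The mitochondrial chaperonin pair moved together: Hspd1 had 69.8 and 67.6 CPM, against 94.9 and 96.7 CPM (-0.48 ± 0.06), and Hspe1 had 25.1 and 24.9 CPM, against 36.2 and 38.2 CPM (-0.57 ± 0.11). The endoplasmic reticulum isomerases Pdia6 (-0.41 ± 0.06) and Pdia4 (-0.40 ± 0.07) fell as well. Between 8 members, without normal library 2, and 12 members were lower when a library was left out, with 10 without TB library 2.

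Cytosolic ribosomal protein genes (19 of 35 lower, 0 higher, median -0.33) and genes of oxidative phosphorylation (17 of 32 lower, 0 higher, median -0.31) also fell by small amounts. Rps15 of the small ribosomal subunit had 1012 and 924 CPM in TB spleen Treg, against 1305 and 1338 CPM in normal spleen Treg (-0.45 ± 0.07, adjusted p = 0.00143). Atp5b, of the ATP synthase, had 587 and 555 CPM, against 764 and 785 CPM (-0.44 ± 0.08, adjusted p = 0.00337). Both lists are of strongly expressed, mostly short genes, where lower calls were frequent in general. A correction for transcript length, added after the data were seen, left 10 ribosomal genes (median -0.15) and 9 oxidative phosphorylation genes (median -0.18) lower. Without normal library 2, 1 ribosomal and 3 oxidative phosphorylation genes were lower, without TB library 2, 1 and 8, without TB library 1, 17 and 8, and without normal library 1, 14 and 11. Near-identical pseudogenes make single ribosomal genes uncertain.

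Genes that mark naive T cells and guide them to lymphoid organs were lower: 16 of 21 tested members fell and 1 rose, with a median of -0.53. Klf2, the transcription factor that keeps S1pr1 on, had 175 and 201 CPM in TB spleen Treg, against 294 and 341 CPM in normal spleen Treg (-0.75 ± 0.10, adjusted p = 0.000563). S1pr1, the receptor for exit from lymphoid organs, had 404 and 407 CPM, against 605 and 694 CPM (-0.68 ± 0.12). Both of these genes of circulation were low in the TB libraries, with the gap that every called gene shows. Lef1, a transcription factor of naive and memory T cells, had 261 and 243 CPM, against 371 and 384 CPM (-0.59 ± 0.12), and Treml2 fell by 0.85 ± 0.09. Tcf7, its relative, had 728 and 617 CPM, against 884 and 852 CPM, and did not pass the test (-0.37 ± 0.13, adjusted p = 0.0793).

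The member that went the other way was Il7r, the IL-7 receptor chain that naive and memory T cells use to survive and most Treg carry at low level. It had 891 and 1059 CPM in TB spleen Treg, against 358 and 475 CPM in normal spleen Treg (1.23 ± 0.12, adjusted p = 5.83e-05). The number of members lower was 14 without TB library 1, 9 without TB library 2, 12 without normal library 1 and 10 without normal library 2, and Il7r stayed higher in each.

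Of 35 markers of effector and tissue Treg 12 rose and 0 fell (median 0.27). Ccr8, a chemokine receptor of tissue and tumour Treg, had 94.7 and 94.3 CPM in TB spleen Treg, against 42.2 and 36.2 CPM in normal spleen Treg (1.27 ± 0.12, adjusted p = 5.35e-05). Id2, the inhibitor of E proteins that effector cells express, had 82.0 and 81.7 CPM, against 37.9 and 39.5 CPM (1.08 ± 0.13), the opposite direction to Id3. Bhlhe40, a transcription factor of activated T cells, had 147 and 132 CPM, against 67.7 and 44.7 CPM (1.31 ± 0.20). Areg, an epidermal growth factor family ligand of tissue Treg, was low in all 4 libraries, with 3.60 and 4.19 CPM, against 2.18 and 1.42 CPM (1.10 ± 0.23, adjusted p = 0.00865). The count of members higher was 7 without TB library 2 and 7 without normal library 2.

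Il1rl1, which encodes ST2 (chromosome 1, 40429570 to 40465415), had 59.9 and 86.9 CPM in TB spleen Treg, against 37.5 and 59.5 CPM in normal spleen Treg. The groups met without overlapping, the lower TB library lying beside the higher normal one. It did not pass the test (0.60 ± 0.27, adjusted p = 0.153), and passed it only when the spread was estimated from the 4 spleen Treg libraries (adjusted p = 0.0459) or the 8 spleen libraries (adjusted p = 0.0373). The change was 0.30 without TB library 2 or normal library 1, 0.84 without TB library 1 and 0.97 without normal library 2. In the 24-gene list of this receptor and its signalling 3 genes rose and 3 fell. That was 1 and 0 without TB library 1 or normal library 2, 2 and 0 without TB library 2, and 2 and 1 without normal library 1. Tnfaip3, the enzyme that switches off NF-kB signalling, had 568 and 512 CPM, against 169 and 188 CPM (1.60 ± 0.12, adjusted p = 6.71e-06). Myd88, the adaptor below ST2, had 70.5 and 71.6 CPM, against 86.4 and 89.0 CPM (-0.30 ± 0.06, adjusted p = 0.00837), a call that was lost without TB library 1, TB library 2 or normal library 2, at values from -0.29 to -0.32.

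Of 22 Treg identity genes 5 rose and 2 fell (Gpr83 and Nrp1), and the number lower was 1 without TB library 1 and 0 without each other library. The tumour necrosis factor receptors Tnfrsf4 (OX40) and Tnfrsf18 (GITR) rose by 0.86 ± 0.11 and 0.86 ± 0.10. Tnfrsf4 had 583 and 573 CPM in TB spleen Treg, against 322 and 315 CPM in normal spleen Treg. Tnfrsf18, which overlaps another gene on the opposite strand over 27.2% of its exonic bases, had 516 and 478 CPM, against 272 and 276 CPM. Ctla4, the inhibitory receptor, had 703 and 699 CPM, against 381 and 462 CPM (0.73 ± 0.11, adjusted p = 0.00131). Il2ra, the high-affinity IL-2 receptor chain, lay at 726 and 782 CPM, against 942 and 1030.1 CPM, and did not pass the test (-0.39 ± 0.14, adjusted p = 0.0742).

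The wider list of checkpoint and costimulatory receptors had 6 of 25 higher and 3 lower. Pdcd1, which encodes PD-1, had 302 and 308 CPM in TB spleen Treg, against 154 and 124 CPM in normal spleen Treg (1.13 ± 0.17, adjusted p = 0.00116). Havcr2, which encodes TIM-3, was low, with 6.50 and 11.2 CPM, against 3.22 and 4.54 CPM (1.19 ± 0.25, adjusted p = 0.00808). Cd5, an inhibitor of T cell receptor signalling, had 602 and 565 CPM, against 773 and 812 CPM (-0.44 ± 0.07, adjusted p = 0.00136). The gene listed as 4632428N05Rik, which encodes the inhibitory receptor VISTA, had 423 and 381 CPM, against 568 and 566 CPM (-0.49 ± 0.07).

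Among 36 cytokine receptors and SOCS genes 8 rose and 4 fell, and leaving out a library left 3 (without normal library 2) to 5 higher and 1 (without normal library 1) or 2 lower. Ifngr1, the ligand-binding chain of the interferon gamma receptor (chromosome 10, 19591949 to 19610229), had 1404 and 1432 CPM in TB spleen Treg, against 324 and 371 CPM in normal spleen Treg (2.03 ± 0.11, adjusted p = 5.06e-07). Il6ra, the IL-6 receptor, had 189 and 177 CPM, against 269.6 and 303 CPM (-0.64 ± 0.10, adjusted p = 0.00182). Socs1, an inhibitor of cytokine signalling, had 91.0 and 97.4 CPM, against 64.8 and 57.9 CPM (0.62 ± 0.11), a call lost without normal library 2 (0.54). Of 30 genes of the interferon gamma response 2 rose and 8 fell, among them the immunoproteasome subunit Psmb10, with 107 and 104 CPM, against 162 and 153 CPM (-0.58 ± 0.09, adjusted p = 0.00209). The count of these genes lower was 1 without TB library 1, 4 without TB library 2, 3 without normal library 1 and 1 without normal library 2, and the count higher was 1 without TB library 2 and 0 without normal library 2. Of 36 type I interferon genes 3 rose and 4 fell, with a median of 0.01; without TB library 1, TB library 2, normal library 1 and normal library 2 the counts were 4 and 0, 0 and 1, 0 and 0, and 1 and 0.

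Of 17 chemokine and migration receptors 5 rose and 1 fell, and 3 rose without TB library 2, normal library 1 or normal library 2. Cx3cr1, the fractalkine receptor (chromosome 9, 119901616 to 120069879), was low but separated, with 5.52 and 5.46 CPM in TB spleen Treg, against 0.502 and 0.623 CPM in normal spleen Treg (3.28 ± 0.25, adjusted p = 8.32e-06). Ccr6 had 73.0 and 87.7 CPM, against 42.1 and 49.1 CPM (0.82 ± 0.12). Gpr183, the oxysterol receptor that positions T cells in the spleen, had 69.4 and 84.3 CPM, against 117 and 133 CPM (-0.70 ± 0.12, adjusted p = 0.00303). Among 29 integrins and adhesion molecules 4 rose and 6 fell; 1 rose without TB library 2, and 2 without normal library 1 or normal library 2, and 4 fell without normal library 2. Emb, the adhesion protein embigin, had 429 and 424 CPM, against 204 and 224 CPM (0.99 ± 0.07, adjusted p = 5.03e-06), and Itgb1, the integrin chain shared by many matrix receptors, had 438 and 486 CPM, against 681 and 799 CPM (-0.68 ± 0.12).

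Of 21 genes of the glucocorticoid response in T cells 8 rose and 2 fell (median 0.62). Fkbp5, a chaperone of the glucocorticoid receptor, had 329.6 and 349 CPM in TB spleen Treg, against 164 and 141 CPM in normal spleen Treg (1.16 ± 0.13, adjusted p = 0.000222). Klf9, a transcription factor, had 40.2 and 44.4 CPM, against 15.7 and 11.5 CPM (1.63 ± 0.17, adjusted p = 0.000108). Nr3c1, the glucocorticoid receptor, had 369.8 and 366 CPM, against 243 and 236 CPM (0.62 ± 0.08, adjusted p = 0.000476). Dusp1, a phosphatase that cell handling also induces, was uneven between the TB libraries, with 303 and 162 CPM, against 51.4 and 74.2 CPM (1.89 ± 0.37), and missed the threshold without TB library 1 (1.37) or normal library 1 (1.64). Tsc22d3, another classical target, did not pass the test (0.49). The count of members higher was 5 without TB library 1 and 5 without normal library 1, and none was lower without TB library 1 or normal library 2.

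Per1, a clock repressor that glucocorticoids also induce, had 140.1 and 149.6 CPM in TB spleen Treg, against 74.3 and 63.3 CPM in normal spleen Treg (1.07 ± 0.11, adjusted p = 6.69e-05). It was 1 of 6 circadian clock genes of 20 that rose, with Rora (0.67 ± 0.11) and Bhlhe40, and Dbp, a clock output gene, fell by 0.62 ± 0.16, a call that was kept only without TB library 1. The core activator Arntl (0.23) and the repressor Per2 (0.01) did not pass the test. The time of day at which the mice were killed is not given.

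The lists of fatty acid metabolism and of glycolysis and hypoxia were divided. Of 26 genes of fatty acid metabolism 4 rose and 4 fell. The lipogenic elongase Elovl6 was among the 4 that rose, at 0.79 to 0.97 when a library was left out. Dgat1, which makes triglyceride, had 39.8 and 41.3 CPM in TB spleen Treg, against 18.4 and 19.5 CPM in normal spleen Treg (1.10 ± 0.09, adjusted p = 2.38e-05), and Dgat2, its counterpart, had 13.9 and 14.3 CPM, against 6.11 and 6.50 CPM (1.16 ± 0.13). Cpt1a, which carries fatty acids to oxidation, rose by 0.81 ± 0.12, and the lipogenic genes Srebf1, Acly, Fasn and Scd2 fell by 0.25 to 0.41; none of these 4 decreases was called when a library was left out. Of 26 genes of glycolysis and hypoxia 2 rose and 1 fell, and none fell without TB library 2 or normal library 2. Hif1a, the other hypoxia-inducible factor, had 1199.6 and 1130.1 CPM, against 651 and 586 CPM (0.91 ± 0.09, adjusted p = 5.83e-05). Slc16a3, a lactate exporter, had 54.9 and 51.5 CPM, against 24.0 and 18.3 CPM (1.33 ± 0.15).

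In 4 further lists at most 4 members were called in either direction, where 6.80% of all tested genes were called higher and 8.50% lower. Of 32 immediate early genes 4 rose and 1 fell, and of 17 cytotoxic genes 3 rose and 0 fell. Of 22 helper cytokines and lineage factors 3 rose and 3 fell, and of 15 follicular T cell genes 2 rose and 2 fell. In each list the share higher was above that of all tested genes, on a small number of members. Leaving out a library left 2 to 4 immediate early, 1 or 2 cytotoxic, 1 helper and 1 or 2 follicular genes higher, and 0, 0, 1 or 2, and 1 lower. Among them were the cytokine genes Lta, which had 27.4 and 24.7 CPM in TB spleen Treg, against 40.5 and 44.6 CPM in normal spleen Treg (-0.71 ± 0.09), and Tnf, which had 22.8 and 17.3 CPM, against 31.3 and 35.4 CPM (-0.73 ± 0.21). Their levels were lower in both TB libraries.

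For dividing cells the data did not give a call. None of 26 mitosis genes was called, although all 26 had a log2 fold change above 0, with a median of 0.57. Mki67 had 86.8 and 131 CPM in TB spleen Treg, against 56.7 and 83.3 CPM in normal spleen Treg (0.64 ± 0.22, adjusted p = 0.0655), and its libraries did not overlap. When the spread was estimated from the 4 spleen Treg libraries alone 14 were called higher, with the replicate block 8 were, and without TB library 1 4 were. The median was 0.77 without TB library 1 and 0.305 without TB library 2, where none was called. Of 22 DNA replication genes 1, the licensing factor Cdt1, rose (0.43), and none did without TB library 1 or normal library 2.

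The same comparison in Tconv showed how far these changes were shared. In spleen Tconv 1316 genes (9.74%) were higher and 1012 (7.49%) lower in TB mice, and leaving out a Tconv library left 511 to 839 and 240 to 611. Of the 918 genes higher in Treg 526 were also higher in Tconv, which is 57.3% of the Treg genes and 40% of the Tconv genes. Of the 1148 lower in Treg 597 were also lower in Tconv, which is 52% and 59%. Called or not, 867 (94.4%) of the genes higher in Treg had a log2 fold change above 0 in Tconv. Likewise 1094 (95.3%) of those lower in Treg were below 0 there. Only 2 and 7 were called the opposite way in Tconv. The share of same signs over all tested genes was not computed. The 15 largest increases included 13 that were called higher in Tconv, among them Cables1 (4.63), Rapgef3 (5.07) and Zscan10 (2.62), and the exceptions were Igj and Epas1. The difference between the changes in Treg and Tconv was tested gene by gene and called for 115 genes (0.851%), 30 (0.222%) with the greater log2 fold change in Treg and 85 (0.629%) in Tconv. Without any 1 of the 8 libraries these counts were 14 to 18 and 28 to 61, the lowest without normal Tconv library 2. Across genes, which are not independent, the 2 sets of log2 fold changes had a Spearman correlation of 0.56 and a Pearson correlation of 0.33.

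Among genes named for the largest differences, changes greater in Treg than in Tconv were led by Epas1, Fam46a and Fosl2. Epas1 rose by 2.25 in Treg and lay at 25.6 and 33.2 CPM in TB spleen Tconv, against 36.2 and 33.9 CPM in normal spleen Tconv (-0.25 ± 0.13). The difference was 2.50 ± 0.21 (adjusted p of the difference 9.8e-05). Epas1 was lowest in normal spleen Treg among these 4 groups. Cx3cr1 was named as a list member and lay below the level limit set for the largest differences. It had 1.88 and 2.92 CPM in TB spleen Tconv, against 3.72 and 3.53 CPM in normal spleen Tconv. Its difference was 3.86 ± 0.33. Fam46a, a cytoplasmic poly(A) polymerase family gene, had 95.3 and 132 CPM in TB spleen Treg, against 42.4 and 39.1 CPM in normal spleen Treg, whereas it fell by 0.53 in Tconv (difference 2.01 ± 0.20). Fosl2, Rgs2, Rnf157 and Crem rose in both cell types and by more in Treg, with differences of 1.97, 1.55, 1.51 and 1.24. The difference for Rnf157 missed the threshold without TB Treg library 2 (1.465) or normal Tconv library 2 (1.45).

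Among changes greater in Tconv was that of Neb, which encodes the muscle filament protein nebulin. It had 90.4 and 119.6 CPM in TB spleen Treg, against 34.8 and 43.2 CPM in normal spleen Treg, and 97.2 and 90.7 CPM in TB spleen Tconv, against 1.27 and 1.86 CPM in normal spleen Tconv (difference -4.46 ± 0.31, adjusted p of the difference 1.7e-05). Drc1, of the dynein regulatory complex of cilia (chromosome 5, 30281388 to 30366695), was called in opposite directions: it had 1.88 and 1.74 CPM in TB spleen Treg, against 5.65 and 6.14 CPM in normal spleen Treg (-1.70 ± 0.16), and 22.05 and 21.4 CPM in TB spleen Tconv, against 4.28 and 3.72 CPM in normal spleen Tconv (2.44 ± 0.14). Coro2a, an actin-binding protein, was high in both Treg groups (310 and 301 CPM in TB, against 284 and 294 CPM in normal) and rose by 3.52 in Tconv. The Treg identity list showed the same arrangement, with 10 of its 22 members having a called difference below 0, and 13 members higher in Tconv. Il2ra, for example, had a difference of -2.17 ± 0.21. Igfbp4 was the reverse case among naive genes, falling in Treg while Tconv had 1131 and 1146 CPM in TB mice, against 1053 and 1215 CPM in normal mice (difference -1.47 ± 0.13).

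**Figure D5:**
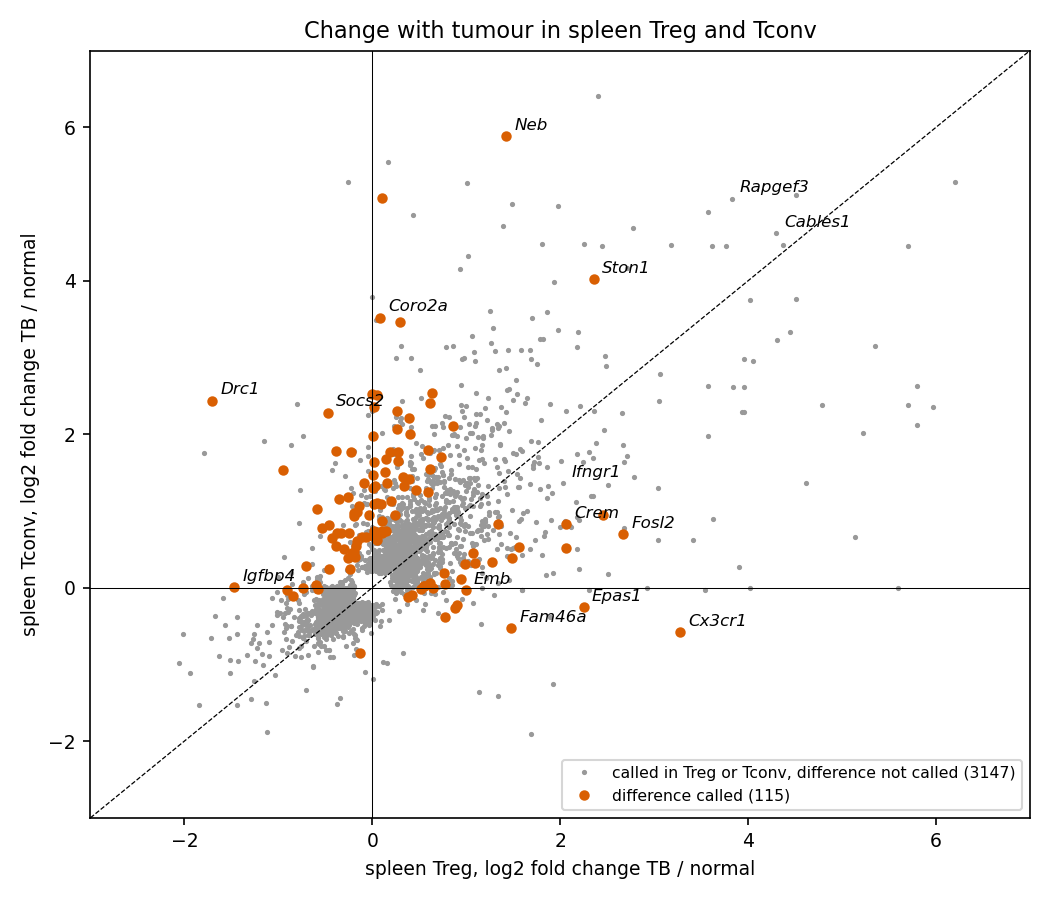
Log2 fold change of TB over normal in spleen Treg (horizontal axis) and in spleen Tconv (vertical axis) for the 3262 genes called in Treg, in Tconv or in the difference, 2 of which lie outside the axes. Orange points are the 115 genes whose difference between Treg and Tconv was called, and the dashed line marks equal change. Most genes lie in the quadrants of shared direction; Drc1 rose in Tconv and fell in Treg.

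Levels in tumour Treg of TB mice are given as a description, since a comparison with them would share the TB spleen Treg libraries. For 10 of the 15 largest increases the tumour Treg mean lay above the TB spleen Treg mean, and for 5 it lay between TB and normal spleen Treg. Fosl2 averaged 1191 ± 79.2 CPM in tumour Treg, 54.4 ± 0.638 CPM in TB spleen Treg and 8.49 ± 2.37 CPM in normal spleen Treg (SD, n = 2 each). Rgs2 averaged 1732 ± 114 CPM, 85.1 ± 9.65 CPM and 20.4 ± 1.45 CPM in the same order of groups. Rapgef3 (13.7 ± 1.66, 15.7 ± 0.734 and 1.10 ± 0.104 CPM) and Zscan10 (6.21 ± 0.245, 13.4 ± 0.0546 and 0.922 ± 0.234 CPM) were not higher in tumour Treg than in TB spleen Treg. Of the 15 largest decreases 7 had a lower mean in tumour Treg than in TB spleen Treg, such as Id3 (21.2 ± 1.39, 45.5 ± 2.39 and 123 ± 13.51 CPM), 6 lay in between, and 2, Igfbp4 and Sox4, had a mean above that of normal spleen Treg.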

How the data were processed

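Messenger RNA of sorted CD4+ T cells was measured in 12 libraries, per the labels, made with a stranded kit and sequenced on a NextSeq500. The authors deposited unscaled read counts per gene; the submitters' processing notes name STAR, featureCounts and mm10, with no version. How strand was treated in counting is not stated, so genes that overlap or lie antisense to another are uncertain. Totals per library ran from 18624132 to 24111546. Titles gave the replicate numbers, and for normal mice the numbers in the sample descriptions differ (2 and 3 for Treg, 1 and 3 for Tconv).

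Counts were filtered by filterByExpr (13509 of 24062 genes kept), scaled by TMM and fitted with edgeR 4.0.16 in R 4.3.3 as 1 quasi-likelihood model of 6 group means (6 residual degrees of freedom). The contrasts tested were 3, and p-values were adjusted by Benjamini-Hochberg across the 13509 genes of each: TB against normal in spleen Treg, the same in spleen Tconv, and their difference. All tests are two-sided. The SE is the log2 fold change divided by the square root of F. An exact permutation test of 2 against 2 cannot go below p = 0.333, so none was used. On simulated counts of 13067 genes for the Treg contrast, the fit recovered 83% of 100 genes altered by a log2 change of 1. It recovered 47% of 100 altered by 0.5, with 3 false among 133 calls. Genes of very low level were not altered, the groups were otherwise given equal means, and the spread came from the same fit. These rates need not hold for the real comparison, where far more genes were called. Between replicates the chi-square per gene was 6.81 in TB and 4.94 in normal spleen Treg, above counting noise, so no library was treated as a repeat deposit of another. It was 9.73 in TB and 3.54 in normal spleen Tconv, 15.2 in tumour Treg and 17 in tumour Tconv, all of which entered the same fit.

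The members, gene lists and rules were chosen with earlier results of these data known. Genes were named as Foxp3 and Il1rl1, the 15 largest called changes each way, up to 5 called members of a list by smallest adjusted p, and the 6 largest called differences each way, at a mean log2 CPM of at least 2 and with no overlap; a few are not reported here, and some other list members were named after their values were seen. Of 828 list members 9 found no row and 4 were found through a synonym. Annotation was the GENCODE mouse annotation of the same build: of 141 named genes 138 matched, 16 overlap an antisense gene over more than 10% of their exonic bases and 7 overlap a sense one. Alternatives were DESeq2 1.42.0, limma-voom (limma 3.58.1), other scalings and filters, a robust fit, fits of fewer libraries, a replicate block, thinning, leaving out each library and, added later, a length correction. Plots used matplotlib 3.10.9 (Python 3.11.15).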

Additional observations from a re-analysis of the deposited data

Results flagged for a closer look

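Of 141 named genes, 25 changed to different degrees in spleen Treg and spleen Tconv by the test of the difference itself (edgeR, adjusted p under 0.05); the 6 largest differences each way were named for that difference, so the count is partly fixed by the choice, and over all tested genes the test called 115 (0.851%). Values are the log2 fold change in Treg minus that in Tconv. The difference was above 0 for 11: Cx3cr1 (3.86), Epas1 (2.50), Fam46a (2.01), Fosl2 (1.97), Rgs2 (1.55), Rnf157 (1.51), Crem (1.24), the fatty acid elongase Elovl6 (1.14), Emb (1.02), Dgat1 (0.78) and Nr3c1 (0.56). It was below 0 for 14: Neb (-4.46), Drc1 (-4.14), Coro2a (-3.44), the cytokine signalling inhibitor Socs2 (-2.76), the receptor CD30 gene Tnfrsf8 (-2.47), Npas4 (-2.34), Ston1 (-1.67), Angptl2 (-1.62), Igfbp4 (-1.47), Tnfrsf4 (-1.24), the lymphotoxin gene Lta (-0.99), Ctla4 (-0.97), Socs1 (-0.93) and Treml2 (-0.74). The calls for Tnfrsf8 and Npas4 were lost when single libraries were left out (Tnfrsf8 -3.19 to -2.01, Npas4 -2.70 to -1.91) and with limma-voom (-2.44 and -2.28).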

How the results depend on the processing

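Leaving out 1 of the 4 spleen Treg libraries gave 271 to 484 genes higher, 241 to 526 lower, 115 to 217 higher at least 2-fold and 23 to 38 lower at least 2-fold (918, 1148, 261 and 40 with all), and leaving out 1 of the 4 Tconv libraries gave 511 to 839, 240 to 611, 223 to 326 and 9 to 25 in Tconv (1316, 1012, 419 and 18 with all); these fits have fewer samples. For the difference the ranges over the 8 spleen libraries were 14 to 18 above 0, 28 to 61 below 0, and 9 to 12 and 23 to 46 at least 2-fold (30, 85, 14 and 50 with all). Among the libraries whose absence moved a count by over 1.5 times, the highest values were 161 and 24 at least 2-fold in Treg, 269 and 10 in Tconv, and 46 and 33 for the differences below 0. Library-size scaling gave 645 lower in Treg and 482 in Tconv. Fitting only the groups compared gave 1756 higher and 1914 lower in Treg, and for the difference 77 above and 243 below 0 (94 at least 2-fold); the 8 spleen libraries gave 1748 and 1791 in Treg, 1982 and 1669 in Tconv, and 77, 243 and 94. DESeq2 gave 62 and 146 differences above and below 0, no filter 47 and 137 (76 at least 2-fold below), and limma-voom 32 at least 2-fold below; the cause was not tested. Foxp3 (not called) ran from -0.0388 to 0.0368 when a library was left out, below 0 without TB library 1 (-0.0175) and normal library 1. The replicate numbers were not taken as pairs, since no label says what they mark. Same-numbered deviations correlated at 0.062 between TB and normal spleen Treg, 0.121 between TB spleen Treg and Tconv, 0.0889 between normal spleen Treg and Tconv, and -0.129 to 0.148 over all pairs of groups. With a replicate block 962 genes were higher and 1115 lower, and the difference was above 0 for 33 and below 0 for 108. Depth limits genes of a few counts, such as the platelet and neutrophil markers.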
